A study of Rattus norvegicus with 18 samples.

Results

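The genes described here are 10 genes of autophagy and of mitophagy, its form for mitochondria: Ulk1, Becn1, Map1lc3a, Map1lc3b, Gabarap, Gabarapl1, Gabarapl2, Sqstm1, Bnip3 and Bnip3l. They were taken with every probe set, a group of short probes for a transcript, that the platform annotation names for them. The named genes of the array number 14217, on 20826 of its 31042 probe sets, and 8 of the 10 had probe sets of their own, 15 in all. Map1lc3b was probed only together with Map1lc3b2 (1367669_a_at), and Gabarapl2 only together with Gabarapl3 (1367783_at and 1380170_at). RefSeq lists both partners as pseudogenes, and the source of these 3 signals within each pair is uncertain, so they are given by their IDs and kept out of the counts.

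The study compared rats with experimental autoimmune myasthenia gravis (EAMG), a model of antibody attack on the neuromuscular junction, with control rats, in 3 muscles. EAMG was induced in female Lewis rats of 6 to 8 weeks by 1 immunization with 40 µg of acetylcholine receptor (AChR) from the electric ray Torpedo, given in complete Freund's adjuvant with added killed mycobacterium. Control rats received that adjuvant without AChR. The muscles, taken 6 weeks later, were the diaphragm (DIA), the extensor digitorum longus of the leg (EDL) and the extraocular muscles that move the eye (EOM), with 3 arrays in each of 6 groups. The RNA on an array was a pool of several rats, 3 by the design text of the series and more by the methods. The labels do not say whether the 3 muscles of a pool came from the same rats. The EAMG rats were weak and had lost weight by then, and weakness, weight loss and the immune attack cannot be told apart here. In whole muscle, fewer cells of a type and less RNA per cell cannot be told apart either.

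Autophagy wraps cell contents in a double membrane, the autophagosome, and delivers them to the lysosome. The kinase Ulk1 and the lipid kinase complex that holds Becn1 start the membrane. Small ubiquitin-like proteins of the ATG8 family (Map1lc3a, Map1lc3b, Gabarap, Gabarapl1 and Gabarapl2) are then joined to its lipids, where Sqstm1 (p62) tethers ubiquitin-tagged cargo, and Bnip3 and Bnip3l tether mitochondria. In skeletal muscle, autophagy genes are known targets of FoxO transcription factors during fasting and denervation. All values below are transcript signals, and neither the lipid-bound proteins nor the flow through the pathway was measured.

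The bases before the transcription start are shown for Gabarapl1 and Map1lc3b, whose probe sets differed most between EAMG and control arrays, and for Bnip3, a member that did not pass. They come from RefSeq on build GRCr8, which held 7 of the 10 members, and each run is the 250 bases before the start, 5′ to 3′. Capitals mark matches on either strand to TATAAA, to the hypoxia core ACGTG or to the antioxidant motif TGACNNNGC. The Gabarapl1 run is chr4:164666082-164666331 on the plus strand, the Map1lc3b run is chr19:66574345-66574594 on the plus strand, and the Bnip3 run is chr1:203154963-203155212 on the minus strand.
Gabarapl1: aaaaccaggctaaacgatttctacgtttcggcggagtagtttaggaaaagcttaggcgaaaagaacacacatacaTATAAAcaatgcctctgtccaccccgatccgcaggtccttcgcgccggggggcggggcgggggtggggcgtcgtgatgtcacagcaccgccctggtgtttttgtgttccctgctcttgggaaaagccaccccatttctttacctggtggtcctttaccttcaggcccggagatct
Map1lc3b: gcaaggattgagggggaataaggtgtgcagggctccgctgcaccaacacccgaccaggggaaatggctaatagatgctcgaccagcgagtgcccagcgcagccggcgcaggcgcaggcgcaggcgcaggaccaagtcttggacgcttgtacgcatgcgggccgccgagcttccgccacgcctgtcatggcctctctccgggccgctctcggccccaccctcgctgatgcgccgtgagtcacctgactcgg
Bnip3: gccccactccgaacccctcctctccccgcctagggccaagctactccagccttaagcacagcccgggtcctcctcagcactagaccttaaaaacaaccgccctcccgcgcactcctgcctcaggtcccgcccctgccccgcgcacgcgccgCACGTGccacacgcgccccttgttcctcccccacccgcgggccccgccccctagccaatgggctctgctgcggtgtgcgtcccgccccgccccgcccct
None of the 7 members held the FoxO motif TGTTTAC, which 3.21% of 33469 promoters of this length held, or the glucocorticoid motif ACANNNTGT (5.81%). The E-box CACGTG was found in Bnip3 alone, 99 bases before the start (5.59% of all). It contains ACGTG, which was also found in Gabarapl2 (2 of 7 members, 16.6% of all). TGACNNNGC was found in Gabarap (1 of 7, 10.1% of all), and TATAAA in Gabarapl1 and Sqstm1 (2 of 7, 12.9% of all). The Map1lc3b run held none of the motifs searched. The Map1lc3b, Bnip3 and Gabarapl1 runs were 67.2%, 72.4% and 54.8% G and C, against a median of 51.2% over all promoters.

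Some arrays stood apart from the rest. Myh13, the myosin of extraocular fibres, had 17345 to 27950 on the 6 EOM arrays and at most 323 on the others. On those it was dim, with 208 to 323 on EDL arrays and 5.4 to 36.5 on DIA arrays. Slow fibres are common in DIA, and the summed signal of 10 slow fibre genes was 200904 to 235889 on DIA EAMG arrays and 227003 to 245007 on DIA controls. The array labelled EDL EAMG 2 had 289476, above every DIA array, against 98884 and 108836 on the other EDL EAMG arrays and 90168 to 104530 on EDL controls. Tnnt1, a troponin of slow fibres, had 31641 on it, against 6026 and 6802 on the other EDL EAMG arrays and 6353 to 7243 on EDL controls. The slow fibre signals of this array thus go against its EDL label, while its fast fibre and Myh13 signals lay with EDL. Sums of 10 fast fibre genes were 359977 to 383366 on EDL EAMG arrays, this array included, against 226294 to 282869 on DIA arrays. The reason for this mix was not tested, and calls in EDL are given with and without this array. The poly-A control RNAs, spiked into each sample, had mean signals of 842 (DIA EAMG 2) and 586 (EOM EAMG 2), while those of the remaining 16 arrays were 11357 to 27513.

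The largest increases in EAMG among these genes were those of Gabarapl1, the LC3B pair (Map1lc3b with Map1lc3b2) and Map1lc3a, which passed the test in EDL. Gabarapl1 rose 2.10-fold in EDL and Map1lc3a 1.54-fold, and the LC3B pair rose 2.21-fold there. In DIA and EOM no member passed the test. Bnip3l and Becn1 lay close to no change when the 3 muscles were averaged. Log2 signals of all 18 arrays entered a single limma fit, with p adjusted over 12238 probe sets and a threshold of 0.05. These probe sets had reached a signal of 400 on at least 1 array. They include 12 of the 15 members' own probe sets and all 3 shared ones. The other 3 (Gabarap 1378279_at, Sqstm1 1371220_at and 1371221_at) stayed under 400 on all 18 arrays.

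Of the 12 tested probe sets, 3 passed as higher in EDL, where 3.37% of all tested probe sets did, and none as lower (3.22% of all). In DIA none passed, where 1.53% of all were higher and 1.15% lower, and in EOM none passed, where 0.964% were higher and 0.531% lower. Without the array labelled EDL EAMG 2, 1 of the 12 passed in EDL (Gabarapl1 1371680_at) and 3 in the average. With all arrays the EDL count became 4 with a variance trend and 2 with quantile normalization. At an unadjusted p under 0.05 limma gave 2 of the 12 in DIA, 7 in EDL and 1 in EOM. Over all 12238 tested probe sets it gave 2440 in DIA, 2905 in EDL and 1605 in EOM. In the average of the 3 changes, 5 of the 12 passed as higher, on 4 genes, where 10.5% of all tested probe sets did, and none as lower (9.93% of all). The muscles of a pool may share rats, and with a random block for treatment and replicate number 2 of the 12 passed. The 12 had a median log2 change of 0.33 in DIA (0.010 over all tested probe sets), 0.39 in EDL (-0.0027 over all) and 0.16 in EOM (0.00057 over all). All 3 EAMG arrays lay above all 3 controls for 5 of the 12 in DIA (13.3% of all tested), 4 in EDL (12.6%) and 2 in EOM (12.5%). None of the 12 lay wholly below in any muscle (11.1%, 12.4% and 11.9% of all tested in DIA, EDL and EOM). The log2 change was above 0 in every muscle for 8 of the 12, and for 25.5% of all tested probe sets.

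**Figure D1:**
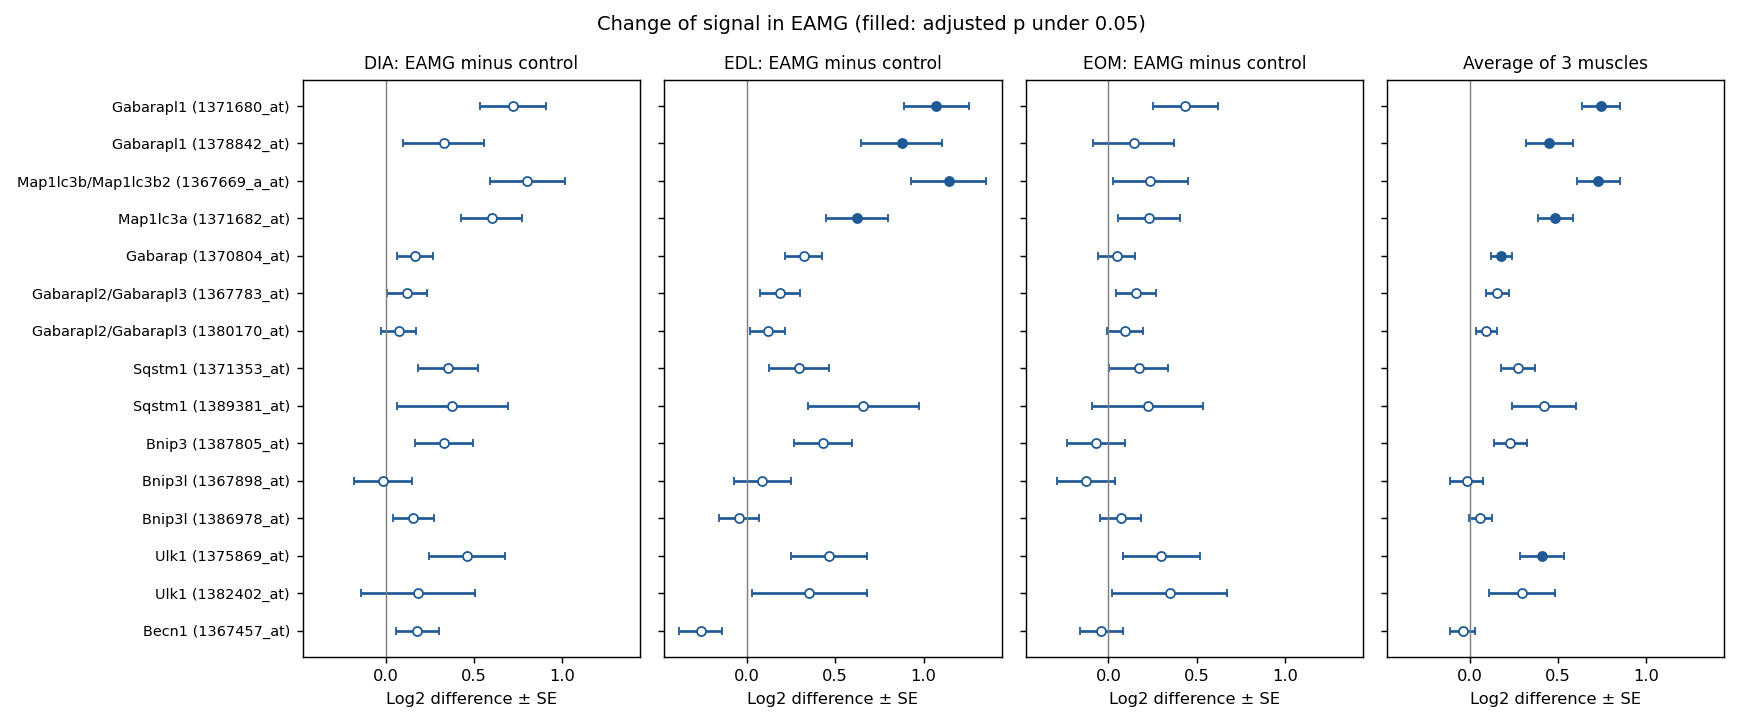
Log2 difference of signal, EAMG minus control, with the standard error (SE) of limma, for the 12 tested probe sets of the members and the 3 shared ones, in DIA, EDL and EOM and in the average of the 3. Filled points passed at an adjusted p under 0.05: none in DIA or EOM, 3 of the members' own and the LC3B pair in EDL, and 5 and the LC3B pair in the average.

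Among the ATG8 family, Gabarapl1 (1371680_at), of the GABARAP branch of the family, had signals of 1873, 2949 and 3340.5 on EDL EAMG arrays, against 1280.4, 1361 and 1138 on EDL controls. In DIA it had 2491, 2947 and 2432 on EAMG arrays, against 1575, 1641 and 1543 on controls. In EOM it had 3195, 2194 and 2253 on EAMG arrays, against 1891, 1808 and 1865 on controls. Every EAMG array lay above every control array of its muscle in all 3 muscles, which held for no other tested probe set of the members and for 2.42% of all tested. Its log2 change was 1.07 (SE 0.19, adjusted p = 0.00566) in EDL, 0.72 (adjusted p = 0.0516) in DIA and 0.44 (adjusted p = 0.319) in EOM. The average of the 3 was 0.74 (95% interval 0.52 to 0.97, adjusted p = 0.000408). In EDL the change passed in each of 18 fits with 1 array left out (0.99, adjusted p = 0.0288, without EDL EAMG 2), but a fit of the EDL arrays alone gave an adjusted p of 0.119. In DIA it passed without DIA EAMG 1 (0.0497), EDL EAMG 1 (0.0138), EDL EAMG 3 (0.0374) or EOM EAMG 1 (0.0394).

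The other Gabarapl1 probe set (1378842_at) was dimmer and had 673, 1045 and 1177 on EDL EAMG arrays, against 421, 516 and 615 on EDL controls, with no overlap. Its log2 change was 0.88 in EDL (SE 0.23, adjusted p = 0.0363), 0.33 in DIA and 0.14 in EOM, and 0.45 on average (adjusted p = 0.0272). DIA EAMG 3 had the lowest signal of the 6 DIA arrays, at 512, against 852 and 948 on the other DIA EAMG arrays and 546 to 631 on DIA controls. That array also had a GAPDH ratio of 3′ to 5′ probe sets of 2.66, against 1.06 to 1.33 on the other 17, and the part of RNA quality in this signal was not tested. The EDL call was lost without EDL EAMG 2 (0.119), EDL EAMG 3 (0.148), EDL control 1 (0.143) or EDL control 2 (0.0923), and also, just at the threshold, without EOM control 1 or EOM control 3. The call on the average was lost without DIA EAMG 2, EDL EAMG 2, EDL EAMG 3, EDL control 1 or EOM EAMG 1, at adjusted p of 0.0508 to 0.0583. It was also lost with the random block (0.0558) and without DIA EAMG 2 and EOM EAMG 2 (0.0835).

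The LC3B pair (1367669_a_at), Map1lc3b being the usual marker protein of autophagosomes, had 4216, 4495 and 6641 on EDL EAMG arrays, against 1776, 2128 and 3099.6 on EDL controls. In DIA the signals were 3691, 4566 and 3555 on EAMG arrays, against 2216, 1868 and 2728 on controls. In EOM they were 3027, 2727 and 2342 on EAMG arrays, against 2145, 2487 and 2207 on controls. EAMG and control arrays were apart in EDL and in DIA and overlapped in EOM. In EDL the pair rose by 1.14 on the log2 scale (SE 0.21, adjusted p = 0.00812), and its log2 changes were 0.80 (adjusted p = 0.0569) in DIA, 0.24 (95% interval -0.22 to 0.69, adjusted p = 0.691) in EOM and 0.73 on average (adjusted p = 0.00119). The calls in EDL and in the average held whichever of the 18 arrays was left out (1.22 in EDL without EDL EAMG 2, adjusted p = 0.0228), and a fit of EDL alone gave 0.129. In DIA the change passed without EDL EAMG 3 (0.0401) or EDL control 3 (0.034), and with a block for each muscle and replicate number (0.0401), an alternative added after the data were seen. Map1lc3b and Sqstm1 stand among the transcripts that the study itself chose as altered on these arrays, so their direction is no independent evidence.

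**Figure D2:**
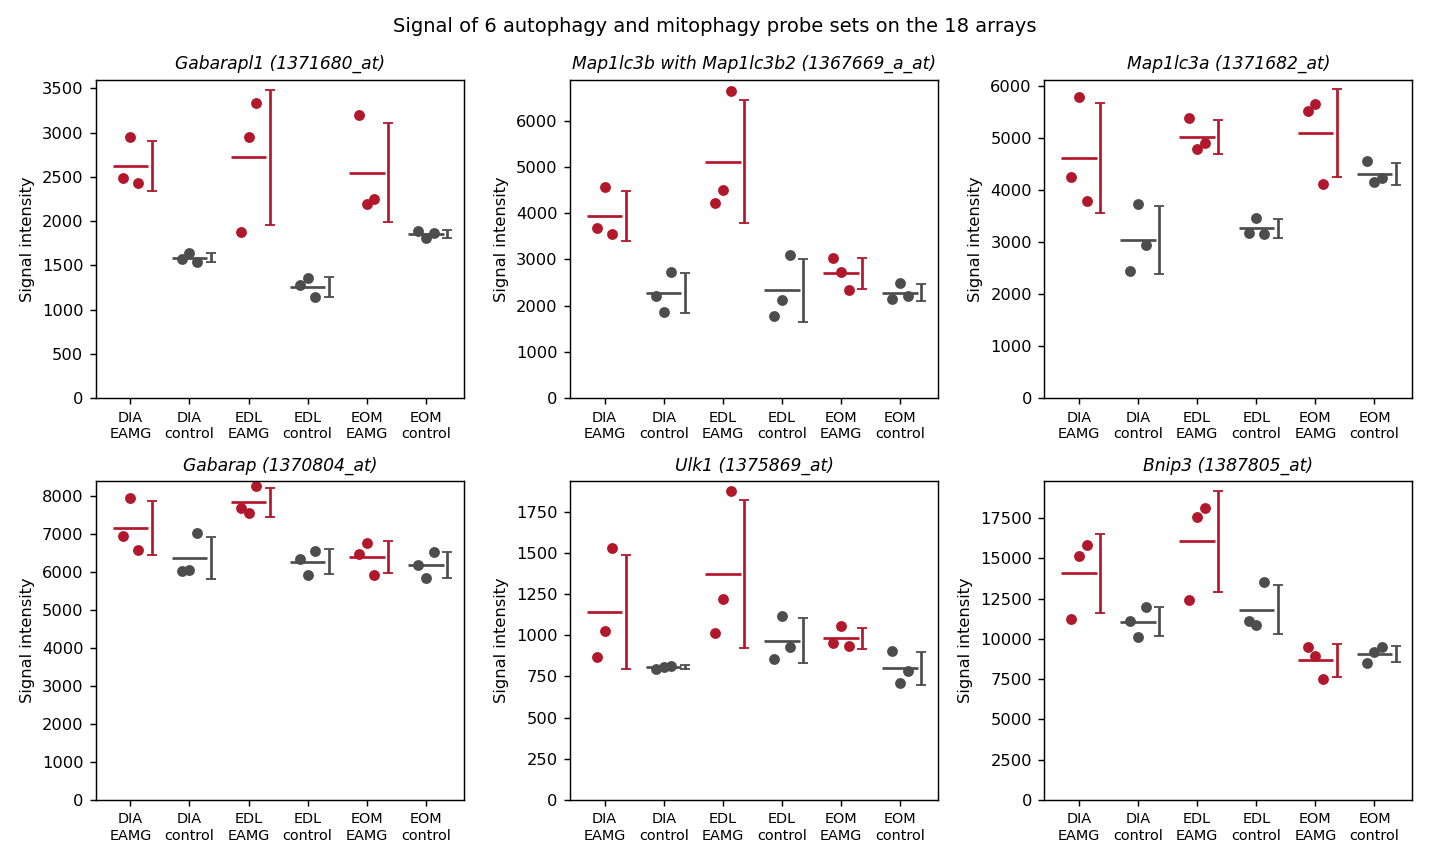
Signal intensity on a linear scale from 0 for 6 probe sets, with 1 point per array, the group mean as a bar and 1 SD beside it (3 arrays per group, EAMG in red and control in grey). Gabarapl1 shows no overlap of EAMG and control arrays in any muscle, the LC3B pair and Map1lc3a show none in DIA and EDL, and Bnip3 in EOM lies below its levels in the other 2 muscles.

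Map1lc3a (1371682_at), the LC3 form with a probe set of its own, had 4261, 5801 and 3789.8 on DIA EAMG arrays, against 2443, 3740.3 and 2935 on DIA controls. In EDL it had 5394, 4784 and 4902 on EAMG arrays, against 3166, 3469.7 and 3155 on controls. In EOM it had 5521, 5652 and 4126 on EAMG arrays, against 4555, 4148 and 4228 on controls. The groups were apart in DIA and EDL, by a narrow margin in DIA, and overlapped in EOM through EOM EAMG 3. Map1lc3a had a log2 change of 0.60 (adjusted p = 0.0736) in DIA, 0.62 (SE 0.17, adjusted p = 0.0447) in EDL, 0.23 (adjusted p = 0.623) in EOM and 0.48 on average (adjusted p = 0.00409). The call on the average held whichever array was left out, and the EDL call held in 6 of those 18 fits. It was lost without any of the 6 EDL arrays (0.0806 to 0.136, the highest without EDL control 1), at 0.0979 without EDL EAMG 2. With the block in each muscle the DIA change passed too (0.0466). The EDL call was also lost without DIA EAMG 1, DIA control 3, EOM EAMG 1 or any EOM control (0.0503 to 0.0611).

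Gabarap (1370804_at), the founding member of its branch of the family and first known as a partner of GABA-A receptors, differed less. In EDL it had 7682, 7561 and 8267 on EAMG arrays, against 6356, 5921 and 6554 on controls, with no overlap, while in DIA and EOM the groups overlapped. The log2 change of Gabarap was 0.32 (adjusted p = 0.0775) in EDL, 0.17 in DIA, 0.05 (95% interval -0.17 to 0.27) in EOM and 0.18 on average (SE 0.060, adjusted p = 0.0480). The call on the average held in 4 of the 18 such fits, those without DIA EAMG 3, DIA control 3, EDL control 3 or EOM EAMG 3, and reached 0.0966 without DIA EAMG 2. Its adjusted p was 0.149 without DIA EAMG 2 and EOM EAMG 2, the arrays of low spike-in signal, 0.0785 with the random block and 0.1005 with the block in each muscle. Its dim probe set (1378279_at) had 133 to 238 on the 9 EAMG arrays, against 217 to 324 on the 9 controls. In a fit with no signal minimum its average log2 change was -0.46 (adjusted p = 0.0520), opposite in direction to the bright probe set.

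The Gabarapl2 pair did not pass in EAMG. Its probe set 1367783_at had 6899 to 7544 on EOM EAMG arrays, against 6307 to 6699 on EOM controls, and overlapped in DIA and EDL. The average log2 change was 0.16 (adjusted p = 0.103) for this probe set and 0.09 (adjusted p = 0.271) for 1380170_at.

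Of the genes that start the membrane, Ulk1 passed as higher in the average of the 3 muscles and Becn1 did not pass. Ulk1 (1375869_at), the kinase that AMPK activates and mTOR inhibits, had 868, 1028 and 1529.7 on DIA EAMG arrays, against 796, 809.8 and 816 on DIA controls. In EDL it had 1014, 1224 and 1878 on EAMG arrays, against 855, 1120.2 and 930.2 on controls. In EOM it had 954, 1057 and 933 on EAMG arrays, against 905, 708 and 785 on controls. The groups were apart in DIA and EOM and overlapped in EDL. No muscle passed alone (log2 change 0.46, 0.46 and 0.30 in DIA, EDL and EOM, adjusted p = 0.251, 0.207 and 0.600), while the average of 0.41 (SE 0.12) passed at 0.0319. That call held in 11 of 18 fits with an array left out and was lost without DIA EAMG 3, DIA control 1, EDL EAMG 3, EDL control 1, EOM EAMG 2, EOM control 2 or EOM control 3 (0.0526 to 0.0639). It stood at 0.0745 without DIA EAMG 2 and EOM EAMG 2 and at 0.0543 with the random block. The dimmer probe set 1382402_at had an average log2 change of 0.29 (adjusted p = 0.285).

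Becn1 (1367457_at), the core of the lipid kinase complex, had 1739.6, 1812 and 2042 on DIA EAMG arrays, against 1673, 1628 and 1627 on DIA controls. In EDL it had 1913, 1995 and 1499.9 on EAMG arrays, against 2207, 2285 and 1956 on controls. The groups were apart in DIA and overlapped in EDL through EDL EAMG 2. Becn1 had a log2 change of 0.18 in DIA (adjusted p = 0.432), -0.26 in EDL (adjusted p = 0.203) and -0.04 in EOM (adjusted p = 0.925), and the average was -0.04 (95% interval -0.19 to 0.11).

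Sqstm1 (1371353_at), the cargo receptor, had 10231, 13174 and 12395 on DIA EAMG arrays, against 9227, 9043 and 9607 on DIA controls. In EDL it had 11066, 13454 and 17583 on EAMG arrays, against 11471, 10213 and 12095 on controls. In EOM it had 11479, 12065 and 8228 on EAMG arrays, against 9004, 9576 and 9261 on controls. The groups were apart in DIA alone. Sqstm1 had a log2 change of 0.35 in DIA (adjusted p = 0.257), 0.30 in EDL (adjusted p = 0.305), 0.17 in EOM (adjusted p = 0.723) and 0.27 on average (adjusted p = 0.0589). The average passed without DIA EAMG 1 (0.037), EDL EAMG 1 (0.0208) or EOM EAMG 3 (0.0197), and also with quantile normalization (0.0318), 100 added to each signal (0.0490) or a variance trend (0.0386), each of which made 6 of the 12 pass in the average. The dimmer probe set 1389381_at had an average log2 change of 0.42 (adjusted p = 0.114) and had its lowest signal of the 18 arrays, 637, on DIA EAMG 3, the array of the high GAPDH ratio. Without that array its adjusted p was 0.0138. The 2 probe sets that stayed under 400 had signals of 5.1 to 71.5 and 50.2 to 176 on the 18 arrays.

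Neither mitophagy receptor passed in any muscle or in the average. Bnip3 (1387805_at), an outer membrane protein of mitochondria and a known hypoxia target, had 12440, 17574 and 18146 on EDL EAMG arrays, against 11083.5, 10829 and 13538 on EDL controls. In DIA it had 11247, 15131 and 15815 on EAMG arrays, against 11098.5, 10132 and 11986 on controls. In EOM it had 9502, 8945 and 7533 on EAMG arrays, against 8498, 9175 and 9507 on controls. The lowest EAMG array fell within the controls in EDL and in DIA, and the groups overlapped in EOM, where EOM EAMG 3 was the lowest. Bnip3 had a log2 change of 0.43 (adjusted p = 0.129) in EDL, 0.33 (adjusted p = 0.277) in DIA, -0.07 (95% interval -0.42 to 0.28) in EOM and 0.23 on average (adjusted p = 0.0990). Without EDL EAMG 1 the change passed in EDL (0.0274) and on average (0.0273), and without DIA EAMG 1 on average (0.0367).

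Bnip3l (Nix), the receptor by which maturing red cells clear their mitochondria, had an average log2 change of -0.02 (95% interval -0.22 to 0.18) by 1367898_at and 0.06 (95% interval -0.08 to 0.20) by 1386978_at. The first had 2394 to 3975 on EAMG arrays, against 2822 to 3559.8 on controls, and the second had 1119 to 1578 on EAMG arrays, against 1035 to 1445 on controls. Over the same arrays the probe sets of 7 red cell genes, haemoglobin chains and Alas2 among them, were summed. The sum was 3813 to 11939 on EAMG arrays, against 13740 to 28962 on controls. All 4 genes that were tested fell in the average, where 9.93% of all tested probe sets were lower. Alas2 had at most 146 on EAMG arrays. It reached the minimum of 400 only on controls, so it entered the test only through the group where it is high. The part of blood left in the muscle in the Bnip3l signal was not tested.

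The changes were set against each other between muscles, since the EOM values were mostly the smallest. The log2 change in EOM was lower than that in EDL by 0.64 for Gabarapl1 1371680_at (95% interval -1.20 to -0.08, adjusted p = 0.422), by 0.90 for the LC3B pair (-1.55 to -0.26, 0.314) and by 0.50 for Bnip3 (unadjusted p = 0.0486 from limma, adjusted p = 0.488). No member and no shared probe set passed in any of the 3 differences, where 0.106% of all tested passed for EOM against EDL and 0.0163% for each of the others. At an unadjusted p under 0.05 there were 3 of the 12 for EOM against EDL (both Gabarapl1 probe sets and Bnip3), none for EOM against DIA, and 1 for EDL against DIA, which was Becn1 (-0.44). Over all 12238 tested probe sets limma gave 1240 for EOM against EDL, 795 for EOM against DIA and 650 for EDL against DIA. A larger change in EDL than in EOM was thus not established, and the intervals do not show that the muscles changed alike.

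Within EDL, most members ranked the EAMG arrays the same way. EDL EAMG 3 was the highest of the 3 for 10 of the 12 probe sets, against 31.6% of all tested, and EDL EAMG 1 the lowest for 8, against 29.4%. In DIA, DIA EAMG 2 was the highest for 8 of 12, against 37.4%. In EOM, EOM EAMG 2 was the highest for 7, against 40.9%, and EOM EAMG 3 the lowest for 8, against 34%. DIA EAMG 2 and EOM EAMG 2 are the arrays of low spike-in signal, and the part of this in the ranking was not tested. With DIA EAMG 2 and EOM EAMG 2 left out, 2 of the 12 probe sets passed in the average and 3 in EDL. The signals of EDL EAMG 2 lay between those of the other 2 EDL EAMG arrays for 8 of the 12 probe sets. This array was the highest for 1, against 34.7% of all tested, and the lowest for 3, against 33.2%.

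In control muscle, few of these genes differed between muscles, and in differing directions. Of the 12 probe sets, 2 passed for EOM against EDL (41.4% of all tested), 1 for EOM against DIA (21.3%) and 1 for DIA against EDL (24.8%). Gabarapl1 (1371680_at) had 1891, 1808 and 1865 in control EOM, 1575, 1641 and 1543 in control DIA, and 1280.4, 1361 and 1138 in control EDL. The 3 muscles did not overlap, and the log2 difference passed for EOM minus EDL (0.56, adjusted p = 0.0242) and not for EOM minus DIA (0.23, 0.444) or DIA minus EDL (0.34, 0.204). This call was lost without EDL control 1 or 3 or without any EOM control (0.0502 to 0.0795). The other probe set, 1378842_at, had a log2 difference of 0.42 for EOM minus EDL (adjusted p = 0.155).

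Map1lc3a had 4148 to 4555 in control EOM, against 2443 to 3740.3 in control DIA and 3155 to 3469.7 in control EDL. The log2 difference was 0.52 for EOM minus DIA (adjusted p = 0.0419) and 0.40 for EOM minus EDL (0.0763), each with no overlap. The first was lost without DIA control 1 (0.187), DIA control 3 (0.103), any EOM control (0.0808 to 0.126), or EDL control 1 or 2 (0.0522 and 0.0511). The second passed without DIA EAMG 2 (0.0471). Becn1 had 1615 to 1767 in control EOM and 1627 to 1673 in control DIA, against 1956 to 2285 in control EDL. It was lower than in EDL in both EOM (log2 difference -0.33, adjusted p = 0.0396) and DIA (-0.38, adjusted p = 0.0307). Each of these calls held in 13 of 18 fits with an array left out. They were lost without EDL control 1 or 2 or without any array of the other muscle compared (0.0623 to 0.125).

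Bnip3 had 8498 to 9507 in control EOM, against 10132 to 11986 in control DIA and 10829 to 13538 in control EDL, with EOM below both. The log2 difference for EOM minus EDL was -0.38 (adjusted p = 0.0794, and 0.0469 without EDL EAMG 1), and for EOM minus DIA -0.29 (adjusted p = 0.252). The Gabarapl2 pair gave differing answers by probe set. By 1380170_at it was lower in EOM than in EDL (1093 to 1341 against 1536 to 1832, log2 difference -0.46, adjusted p = 0.00209, and passed whichever array was left out). By 1367783_at the log2 difference was -0.06. Sqstm1, Bnip3l, Gabarap and Ulk1 did not pass in any muscle comparison, with log2 differences from -0.28 to 0.30.

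**Figure D3:**
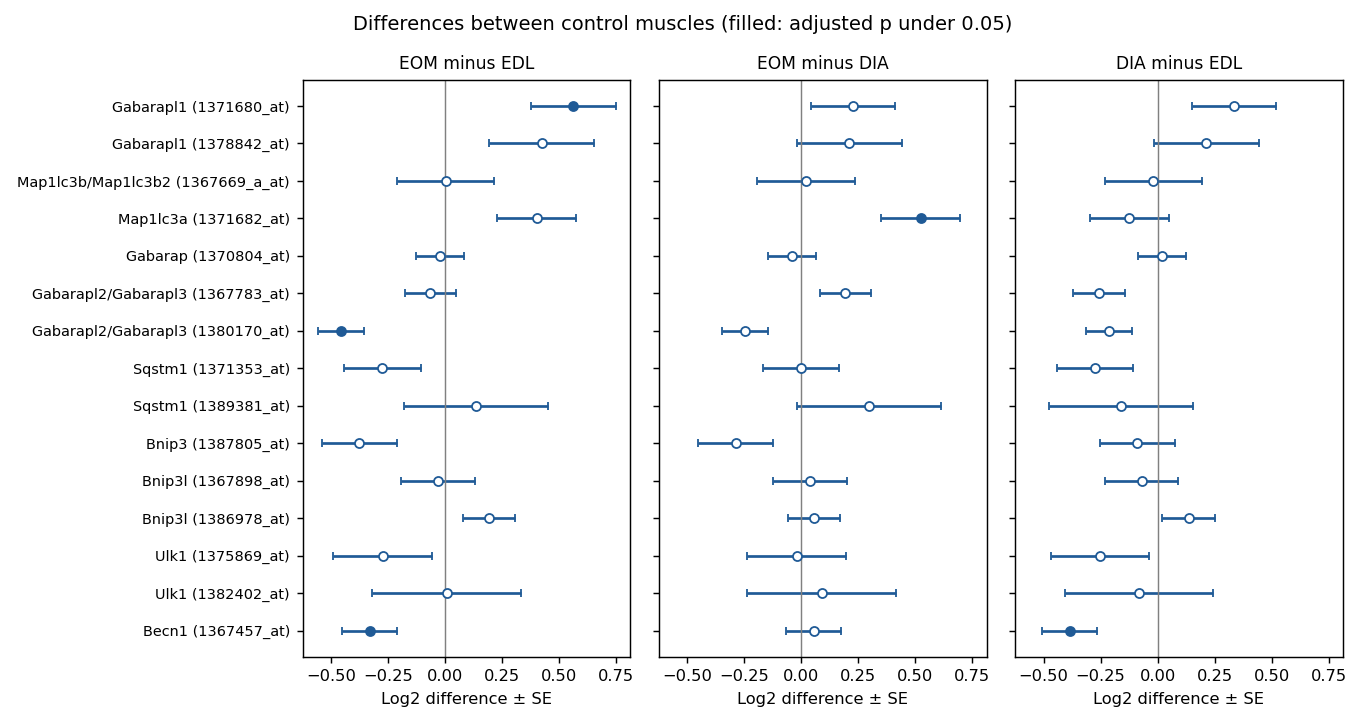
Log2 difference of signal between control muscles, with the SE of limma, for the same 15 probe sets (EOM minus EDL, EOM minus DIA and DIA minus EDL). Filled points passed at an adjusted p under 0.05: Gabarapl1 1371680_at, Becn1 and the Gabarapl2 pair 1380170_at for EOM minus EDL, Map1lc3a for EOM minus DIA, and Becn1 for DIA minus EDL.

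Other genes of the pathway were counted by lists, with each gene given by its brightest probe set, in the average of the 3 changes (10.5% of all tested passed as higher and 9.93% as lower). Of 12 tested genes of the initiation and lipid kinase complexes, Ulk1 and Becn1 included, 4 were higher and none lower, with a median log2 change of 0.13. Atg13, the scaffold of the Ulk1 complex, rose by 0.49 (SE 0.091, adjusted p = 0.00205) and by 0.65 in DIA alone (adjusted p = 0.0408). Uvrag, a partner of Becn1, rose by 0.29 (adjusted p = 0.0107). Bcl2l1, which encodes the Becn1-binding survival protein Bcl-xL, rose by 0.91 (SE 0.16, adjusted p = 0.00158), with a signal of 502 ± 144 in DIA EAMG and 253 ± 38.5 in DIA control arrays (SD, n = 3 each). It reached the minimum of 400 on 5 EAMG arrays and on no control array, so it entered the test only through the group where it is high.

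Of 9 genes of autophagosome growth, 2 were higher and 2 lower. Wdr45, a lipid-binding protein of the growing membrane, rose by 0.48 (SE 0.067, adjusted p = 0.000361) and passed in DIA and in EDL (0.0575 in EDL without EDL EAMG 2), while Tmem41b, a lipid scramblase, fell by 0.31 (adjusted p = 0.00385). Of 8 genes of the ATG8 conjugation machinery, Atg4a, a protease that trims ATG8 proteins, was the only gene that passed (0.21, adjusted p = 0.0208), and the median was 0.04.

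Among 11 other autophagy receptors, 5 were higher and none lower, but the median was 0.05. Retreg1, a receptor for the endoplasmic reticulum, had a signal of 19229 ± 3419.8 in EDL EAMG and 10665 ± 2041 in EDL control arrays (SD, n = 3 each), a log2 change of 0.85 (adjusted p = 0.0170, and 0.0728 without EDL EAMG 2). In EOM its log2 change was -0.0039. Of 15 other mitophagy genes none was higher and 1 was lower. This was Fundc1, a mitophagy receptor of the outer mitochondrial membrane, which fell by 0.48 on average (SE 0.078, adjusted p = 0.000881), with 738 ± 109 in EDL EAMG and 1115 ± 168 in EDL control arrays (SD, n = 3 each).

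Downstream, of 13 genes of fusion with the lysosome 2 were higher: Rab7a, the late endosome GTPase (0.52, adjusted p = 0.00274), and Snap29, a SNARE of autophagosome fusion (0.38, adjusted p = 0.00684). Of 22 lysosomal genes 3 were higher and none lower, with a median of 0.08. Ctsl, a lysosomal protease, had the largest change of them (0.96 on average and 1.61 in EDL, adjusted p = 0.000117 and 0.00146), and 1.49 in EDL without EDL EAMG 2 (adjusted p = 0.00672).

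Upstream, 6 of 9 FoxO factors and atrophy ubiquitin ligases were higher and none lower, with a median of 0.44. Foxo3, a FoxO factor known to drive autophagy genes in mouse muscle, rose by 0.76 (SE 0.11, adjusted p = 0.000503) and passed in EDL and EOM (0.133 in EDL without EDL EAMG 2). Trim63 and Fbxo32, ubiquitin ligases of atrophy, rose by 1.07 and 0.90 (adjusted p = 0.00266 and 0.0267), and Fbxo32 reached the signal minimum on 6 EAMG arrays and on no control. Of 19 genes of the mTOR and AMPK pathways 4 were higher and 3 lower. Ddit4, a stress-induced inhibitor of mTOR, rose by 1.79 (SE 0.17, adjusted p = 1.82e-05) and passed in every muscle (0.00462 in EDL without EDL EAMG 2), and Sesn1, another inhibitor, rose by 1.04 (adjusted p = 0.00112). Prkaa2, a catalytic subunit of AMPK, fell by 0.94 (SE 0.23, adjusted p = 0.0117). Of 17 hypoxia-induced genes, the class that Bnip3 is known to belong to, 3 were higher and 3 lower. Among the higher, Adm reached the signal minimum on 2 EAMG arrays and on no control, so it entered the test only through the group where it is high. Pfkfb3, a regulator of glycolysis, rose by 1.38 (adjusted p = 0.00147), and Ndufa4l2, a mitochondrial protein, fell by 0.90 (adjusted p = 0.000115) and reached the minimum only on 3 control arrays. Ddit4, Ctsl, Trim63, Fbxo32, Prkaa2 and Pfkfb3 are among the transcripts the study chose on these arrays and are no independent evidence of direction.

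**Figure D4:**
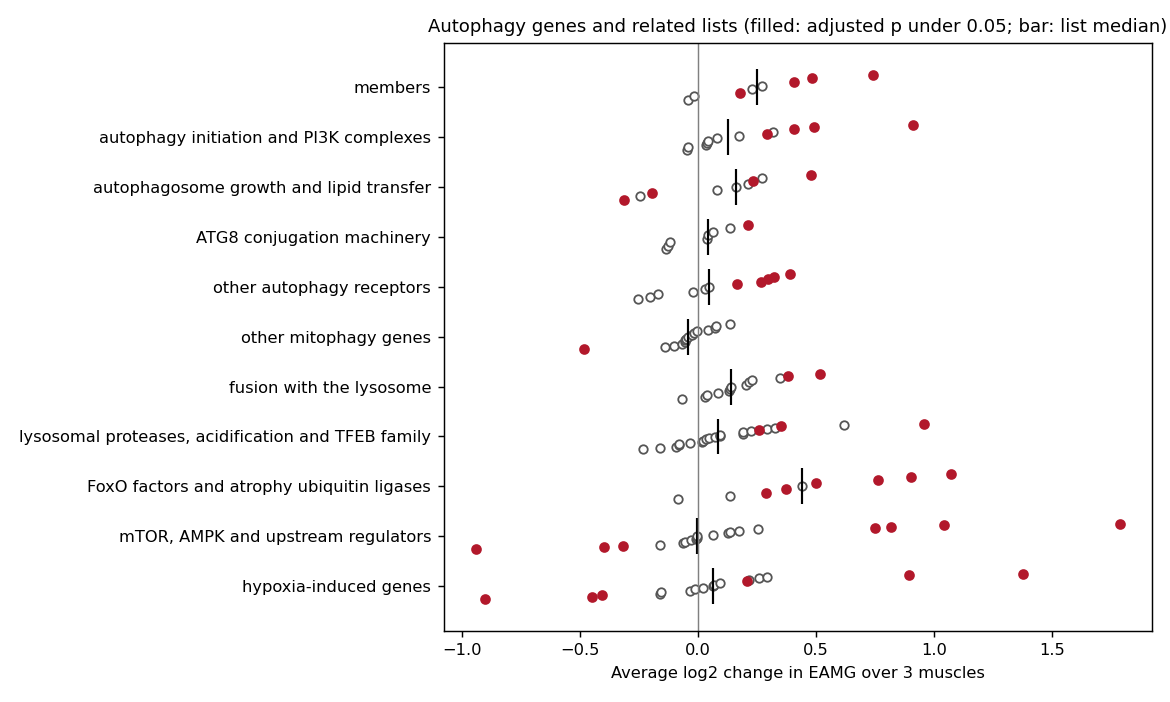
Log2 change in EAMG averaged over the 3 muscles, 1 point per tested gene by its brightest probe set, for the 8 members with probe sets of their own and 10 related lists, with the list median as a bar. Filled points passed at an adjusted p under 0.05. The FoxO and atrophy list has the highest median, 0.44, and that of the members is 0.25.

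Markers of other cells were read beside these values, and their part in the members' changes was not tested. The summed signal of 13 macrophage genes was 11822 to 16883 on DIA EAMG arrays, against 7548 to 11166 on DIA controls. It was 12096 to 36194 on EOM EAMG arrays, against 7589 to 15306 on EOM controls, and 2336 to 5171 on EDL EAMG arrays, against 1980.0 to 4402 on EDL controls. These sums overlapped in EDL and EOM, and 2 of 11 tested macrophage genes rose in the average (10.5% of all tested probe sets). None of 8 T cell genes reached the signal minimum. The sum of 8 genes picked for orbital lipid glands was 11161 to 15173 on EOM EAMG arrays, against 5568 to 6578 on EOM controls. Of these genes, 2 of 6 tested rose in EOM (0.964% of all tested probe sets). In DIA the sums were 11341 to 17851.5 on EAMG arrays and 9943 to 21801 on controls, all above the EOM controls. In EDL they were 6385 to 7052 on EAMG arrays, against 7449 to 9141 on controls. This list was thus not particular to EOM, and whether its rise there came from gland tissue was not tested. Sums of 9 surface epithelium genes were 1823 to 5699 on EOM EAMG arrays, against 1074 to 1715 on EOM controls. In DIA these sums were 1151 to 1918 on EAMG arrays and 1110 to 2080 on controls, so this list was not particular to EOM either. Sums of 5 neutrophil genes were 587 to 868 on EOM EAMG arrays, against 276 to 324 on EOM controls, and 159 to 183 on EDL EAMG arrays, against 56.8 to 143 on EDL controls. EAMG arrays thus lay above controls for all 3 lists in EOM, with no overlap. None of the 8 tested epithelium genes passed there. Of the 5 neutrophil genes only 1 reached the signal minimum, and it did not pass there either. Sums of 10 fast fibre genes were 226294 to 240467 on DIA EAMG arrays, against 268906 to 282869 on DIA controls. Of these, 1 of the 10 fell in DIA (1.15% of all tested probe sets). Sums of 9 general muscle genes were 156979 to 288413 on EAMG arrays, against 201381 to 328614 on controls, and none of the 9 passed.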

How the data were processed

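Whole-muscle RNA was hybridised to 18 Affymetrix arrays, 3 in each of 6 groups taken from the sample labels. The authors computed the deposited signal intensity of each probe set with GCOS 2.0, with all arrays scaled to a common target, and nothing further was scaled here. Every array column was matched to a sample, and 0 columns were left unmapped. Of 31099 rows, 57 array controls were left out, and 12238 probe sets that reached 400 on at least 1 array were tested. The number of arrays limits the precision. By the methods the 3 pools of a group were independent and came from repeats of the experiment. The labels do not tie a replicate number to a repeat, and p-values measure the spread between these pools.

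Log2 intensities were fitted in limma 3.58.1 (R 4.3.3) with a mean for each group over all 18 arrays, and p-values were adjusted by the Benjamini-Hochberg method. Adjusted p-values come from this fit unless another is named. The fit was tested on simulated data. Figures were drawn in matplotlib 3.10.9 (python 3.11.15). Probe sets were named from the platform annotation: 20826 had 1 symbol, 436 had several and 9780 had none. A gene stands by its probe set of highest mean log2 signal, and other probe sets by their IDs. From each pathway list, the genes named were taken from the 4 with the largest average change among those that passed in a muscle or in the average. The members and lists were chosen with earlier results of these data known.

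Alternatives were no signal minimum, the minimum on 3 arrays, quantile normalization, 100 added to each signal, the groups of a comparison alone, a replicate block, a random block, a replicate block within each muscle (added after the data were seen), a variance trend, leaving out DIA EAMG 2 and EOM EAMG 2 together, and leaving out each array. Arrays with the same number deviated together in EDL (r = 0.15 to 0.34 over 3 pairs) and not in every pair of DIA or EOM. The block within each muscle changed no call in EDL.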

Additional observations from a re-analysis of the deposited data

How the results depend on the processing

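Of 4140 values of single probe sets under the alternatives, 4019 kept their side of the threshold, 89 lost a call and 32 gained one, and no called value reversed. The number of the 12 probe sets that passed moved as follows. In DIA it was 0 and became 1 with the minimum on 3 arrays, 1 with 100 added, 2 with the variance trend and 1 with the block within each muscle (Map1lc3a), and 0 to 1 with an array left out. In EDL it was 3 and became 1 with no signal minimum, 0 with the EDL groups alone, 2 with quantile normalization and 4 with the variance trend (Gabarap, 0.0484), and 1 to 3 with an array left out. In the average it was 5 and became 2 with no signal minimum, 2 with the random block, 2 without DIA EAMG 2 and EOM EAMG 2, 6 with quantile normalization, 100 added or the variance trend (Sqstm1 1371353_at), and 2 to 6 with an array left out. For EOM minus EDL in controls it was 2 and became 0 with no signal minimum and 4 with those groups alone, and 0 to 3 with an array left out. For EOM minus DIA it was 1 and became 0 with no signal minimum and 0 with those groups alone, and for DIA minus EDL it was 1 and became 0 with no signal minimum, each 0 to 1 with an array left out. In EOM and in the differences of changes it was 0 throughout. With no signal minimum, the calls of Gabarap, Ulk1 and Gabarapl1 1378842_at in the average, of Gabarapl1 1378842_at and Map1lc3a in EDL, and of the members between control muscles were lost (adjusted p = 0.083 to 0.173). Map1lc3a in EDL was also lost with quantile normalization (0.0718). The cause of these moves was not tested, except that the fit with no minimum adjusts over more probe sets and the fits of 2 groups use fewer arrays.

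Over all probe sets the counts of calls moved too: 187 were higher and 141 lower in DIA, against 20 and 16 with no signal minimum, 6 and 8 with the groups alone and 27 and 24 without DIA EAMG 2 and EOM EAMG 2. In EDL 412 were higher and 394 lower, against 76 and 82 with no minimum and 3 and 0 with the groups alone. In EOM 118 were higher and 65 lower, against 30 and 9 with no minimum. In the average 1280 were higher and 1215 lower, against 594 and 673 with no minimum and 819 and 817 without DIA EAMG 2 and EOM EAMG 2. For DIA minus EDL in controls 1721 were higher and 1319 lower, against 1165 and 787 with no minimum. Differences of changes between EOM and EDL passed for 8 as higher and 5 as lower, and for 31 and 14 with 100 added, 24 and 14 with the random block and 3 and 1 with no minimum. With an array left out, calls in either direction ranged from 63 to 805 in DIA (328 with all arrays), 176 to 1279 in EDL (806) and 50 to 213 in EOM (183). With no minimum the median change of all probe sets in DIA was -0.11. With the replicate block, 0 of the 12 passed in DIA, 3 in EDL, 0 in EOM and 4 in the average, where Gabarap was lost (adjusted p = 0.0561), and it changed no other call of these probe sets. With the block within each muscle, added after the data were seen, 1 passed in DIA, 3 in EDL, 0 in EOM and 4 in the average, where Gabarap was lost (0.1005). Deviations of arrays with the same number in a muscle correlated at -0.03 to 0.34 over 9 pairs, 7 of them above 0.1. All 3 pairs of EDL were above 0.1, while 1 pair in DIA (-0.03) and 1 in EOM (-0.0065) were not.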
